A study of Mus musculus with 8 samples.

Results

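The spread of gene signals among cystic kidneys of 1 genotype was described in the 4 Pkd1V/V kidneys of the series, taken by their labels out of 8 kidneys in all. These mice were homozygous for the V allele of Pkd1, a hypomorphic allele, and their kidneys were removed at P10, the postnatal day of age. The other 4 kidneys came from wild-type mice of the same age and are used below only as background values, and the genotypes were not compared by any test. RNA of each kidney was hybridised to its own Illumina MouseRef-8 v2.0 BeadChip array, so that differences between kidneys, between RNA preparations and between arrays cannot be told apart. The labels give neither sex, strain nor litter, and nothing says which mice shared a litter. The 4 kidneys are called replicates 1 to 4 as in the labels, although the study's own list of array codes gives another code for 1 of the Pkd1V/V arrays than the label of replicate 4, and 4 signals in a row are always in this order.

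Pkd1 encodes polycystin-1, a large membrane protein of tubule cells and their primary cilia, and loss of its function makes tubules widen into fluid-filled cysts. Cystic kidneys hold dedifferentiated and dividing epithelium, matrix-producing fibroblasts and macrophages beside the remaining nephrons. Interferon γ, made by lymphocytes, raises GTPases that act on intracellular parasites, the proteasome subunits and peptide transporters that feed MHC class I, and, through the coactivator CIITA, the MHC class II molecules.

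Probes detected at a p-value below 0.05 in 3 or 4 of these kidneys were kept, and a gene was represented by its kept probe with the highest mean signal. This left 9209 of the 16593 genes named on the array. The spread of a gene was taken as the SD over the 4 kidneys of the log2 of its signal plus 16, where the signal was background-subtracted and quantile-normalized. The median SD was 0.21. An SD of at least 0.5 was found for 723 genes, or 7.85% of those kept, and these are called variable genes below. An SD of at least 1 was found for 104 genes, or 1.13%, and one of at least 0.25 for 3641, or 39.5%. The standard error over the beads of 1 array had a median of 0.075 on the same scale. An SD over 2 times the bead error was found for 6172 genes, or 67.0% of those kept. It was found for 722 of the 723 variable genes, whose threshold of 0.5 already lies far above that median. The 9209 genes kept had a median SD of 0.20 over the 4 wild-type kidneys, and 417 of them were variable there (297 without wild-type replicate 4). The share of probes detected ran from 51.8% to 54.1% over the 4 arrays, and the median number of beads per probe was 40 on 3 arrays and 35 on that of replicate 4. With 4 arrays each SD is known only roughly.

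**Figure D1:**
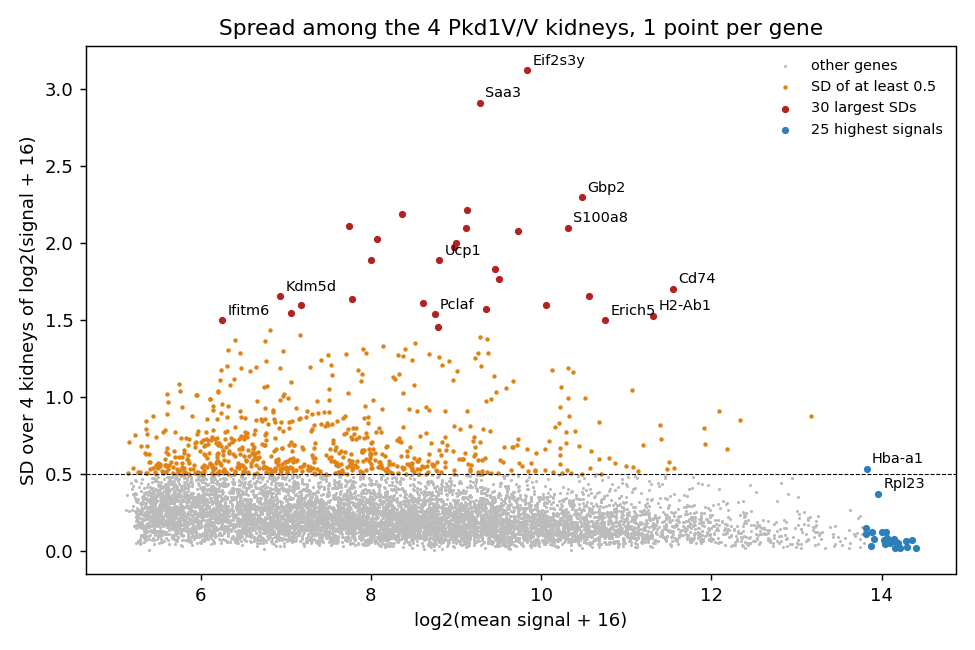
SD over the 4 Pkd1V/V kidneys of log2(signal + 16) (vertical axis, log2 units) against the log2 of the mean signal plus 16 (horizontal axis), with 1 point per gene kept. The dashed line marks an SD of 0.5, which 723 genes reach, and of the 25 genes with the highest signals only Hba-a1 lies above it.

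The highest signals belonged to the translation machinery and differed little among the kidneys. Of the 25 genes with the highest mean, 14 encode proteins of the cytosolic ribosome, and the median SD of the 25 was 0.073. Rplp1, a stalk protein of the large ribosomal subunit, had signals of 21843, 21843, 21174 and 21843. Rps24, of the small subunit, had signals of 19776, 20739.9, 20184 and 20184. Rpl41, Rps12, Rpl38, Rpl37, Rps20, Rpl39, Rps14, Rpl23, Rpl9, Rpl28, Rpl10 and Rpl5 complete the ribosomal members. The top values were shared between arrays because quantile normalization gives every array the same set of values, so their closeness was in part built in. A probe's signal also depends on the probe, and the order is one of signals, not of transcript amounts.

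Beside the ribosome, the 25 held the actin-binding thymosins Tmsb4x and Tmsb10, the chaperone Hspa8, the ferritin heavy chain Fth1, the tubulin Tuba1b, the secreted binding protein Igfbp7 and Atp5g3, a subunit of the mitochondrial ATP synthase. Acta2, the smooth muscle actin that also marks myofibroblasts, had signals of 14657, 18058, 16694 and 16423. Ubb-ps and Gm6548 are a pseudogene and a predicted gene by their symbols, and these probes and those of ribosomal genes with processed pseudogenes may read several near-identical transcripts. Rpl23 spread more than the other ribosomal members, with 19056, 19776, 12575 and 12249 and an SD of 0.37. Replicates 1 and 2 were its high pair. Hba-a1, an α-globin gene, was the only variable gene of the 25. It had 17372, 8349.6, 13150.5 and 19056, lowest in replicate 2. Among the 100 highest signals, 32 genes were ribosomal, 9 belonged to the respiratory chain, and 2 were variable.

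In most of the genes with the largest spreads replicate 1 was high. Saa3, an acute phase serum amyloid, had signals of 2296, 12.5, 20.7 and 98.0 and an SD of 2.91. Fcgr4, an activating Fc receptor of myeloid cells, had 1740.3, 103, 32.5 and 298. Ubd, a ubiquitin-like protein induced by cytokines, had 1087, 37.5, 21.9 and 109. In these 3 genes replicate 1 was far above the rest and replicate 4 was second. Replicate 1 was highest and replicate 4 next in 983 of all 9209 genes kept and in 237 of the 723 variable genes. Of the 30 genes with the largest SD, 25 were highest in replicate 1 and next in replicate 4. The other 5 were Eif2s3y and Kdm5d of the Y chromosome, Ucp1, Pclaf and Erich5, which are described below. The 30th gene, Ccl21a, had an SD of 1.46, and the next one, the macrophage scavenger receptor gene Cd163, had 1.44. Other kept probes existed for 4 of the 30 genes, and all 7 of these probes were highest in the same kidney and had an SD of at least 0.5.

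**Figure D2:**
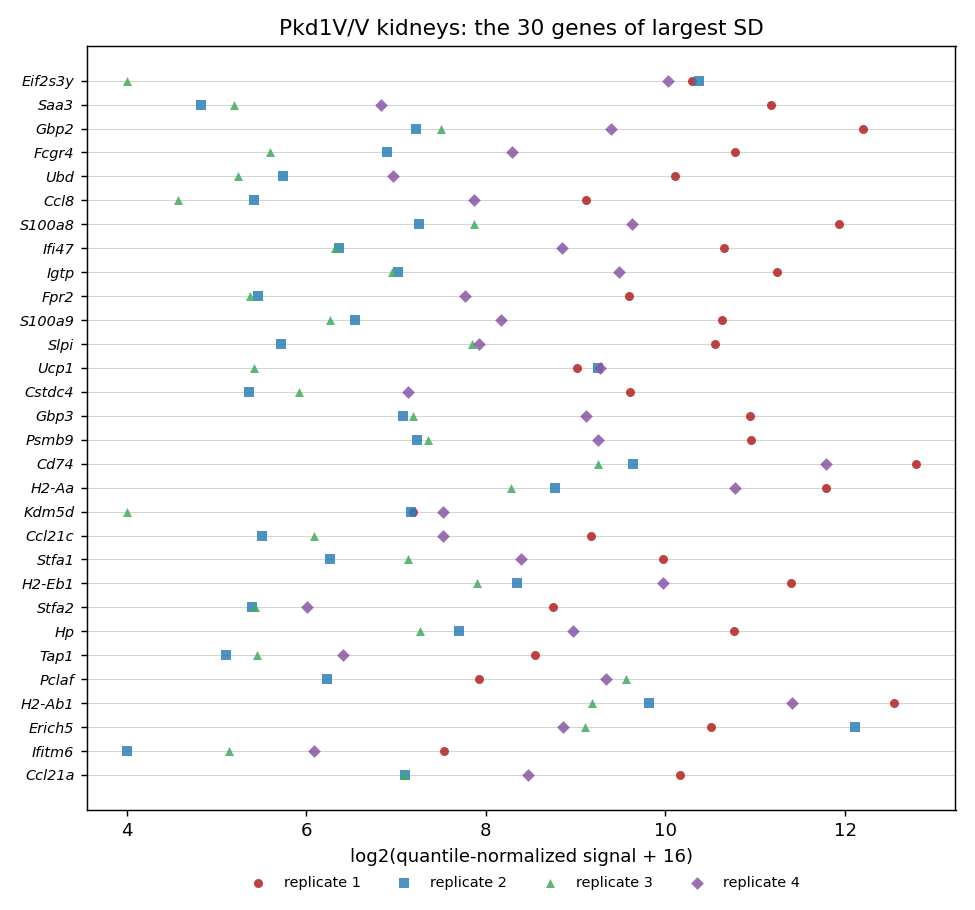
The 30 genes with the largest SD, in falling order from the top, with log2(signal + 16) on the horizontal axis and a marker for each of the 4 Pkd1V/V kidneys. In 25 of the 30 genes replicate 1 is highest and replicate 4 next, against 983 of all 9209 genes kept. A value of 4 stands for a signal of 0.

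Replicate 1 was the kidney most often set apart. It held 41.5% of the summed squared deviation over all genes, against 23.7% in replicate 2, 20.6% in replicate 3 and 14.1% in replicate 4. Between replicates 1 and 3, 580 genes differed by at least 2-fold on this scale, and between replicates 3 and 4 only 110 did. Each gene was classed by the widest gap between its 4 ordered values. Among the variable genes, replicate 1 stood above the other 3 in 244 (33.7%, against 13.7% of all genes kept) and below them in 179 (24.8%, against 16.1%). Replicate 2 stood above in 67 (9.27%, against 11.9% of all genes) and below in 28 (3.87%, against 9.31%). Replicate 3 stood below in 28 (3.87%, against 5.11%), and replicate 4 above in 14 (1.94%, against 4.22%). Replicates 1 and 2 were the high pair in 52 genes (7.19%, against 8.10%). Replicates 1 and 4 were so in 42 (5.81%, against 3.32%), and replicates 3 and 4 in 41 (5.67%, against 9.33%). Besides replicate 1 above and replicate 1 below, only replicates 1 and 4 high held a larger share of the variable genes than of all genes. Without replicate 1 the number of variable genes was 393, and 14 of the 30 genes were still among the 30 with the largest SD.

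**Figure D3:**
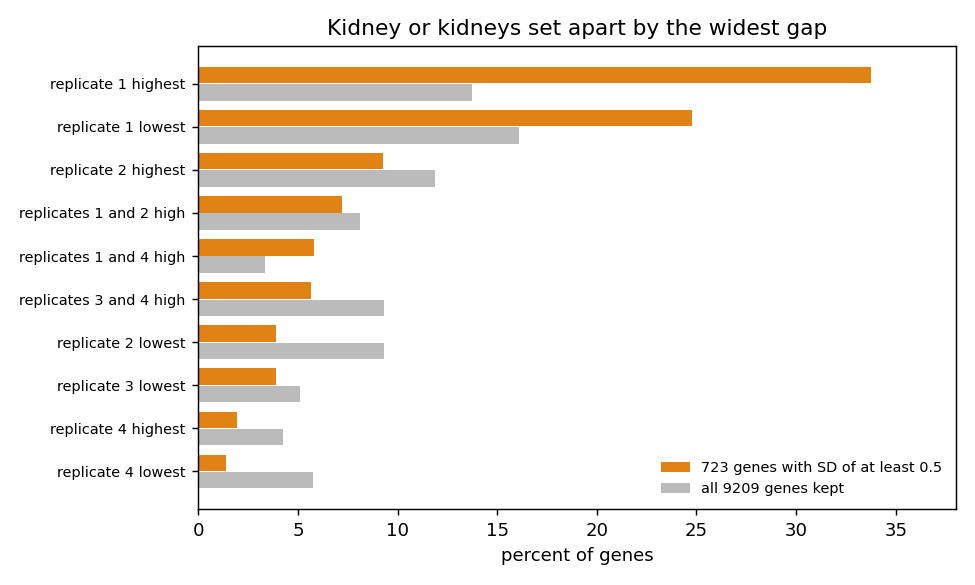
Share of genes (percent) in each class by the widest gap between the 4 Pkd1V/V kidneys, for the variable genes and for all genes kept. Classes with fewer than 10 variable genes are left out. Replicate 1 highest holds 33.7% of the variable genes and 13.7% of all genes.

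Antigen presentation varied most as a function. All 16 genes kept from its list were variable (7.85% of all genes) and all were highest in replicate 1 (27.9% of all genes). Cd74, the invariant chain that guides MHC class II molecules, had 7069, 779, 591 and 3519. H2-Aa, a class II α chain, had 3524, 422, 294 and 1737. Its partner H2-Ab1 had 5952, 888, 563 and 2708. In each of these, and in H2-Eb1, replicate 1 was highest, replicate 4 stood between, and replicates 2 and 3 were low and near each other. Of the class I pathway, Psmb9, a subunit of the immunoproteasome, had 1971, 135, 149 and 592. Tap1, which carries peptides into the endoplasmic reticulum, had 357, 18.5, 27.9 and 69.2. B2m, the light chain of class I, which also stood in the list of reference genes, had 15968, 4682, 4948 and 11186. The order of the kidneys was again replicate 1, then 4, with 2 and 3 lowest, and it also held for the class I heavy chain H2-D1 (617, 69.1, 96.2 and 287), whose probe may read neighbouring class I genes of similar sequence. The median deviations of the list from the gene means were 1.66, −1.02, −0.95 and 0.49 on the log2 scale. Without replicate 1, 13 of the 16 genes stayed variable, since replicate 4 also stood above replicates 2 and 3.

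The interferon-inducible genes ordered the kidneys in much the same way. Of 18 genes kept, 15 were variable and all 18 were highest in replicate 1, with median deviations of 1.15, −0.72, −0.69 and 0.23. Gbp2, a guanylate-binding GTPase, had 4695, 133, 165 and 656. Gbp3 of the same family had 1958, 119, 130.4 and 540.3. Both were several times higher in replicate 1 than in replicate 4, and lower still in replicates 2 and 3. Igtp, an immunity-related GTPase, had 2404, 114, 108 and 697, and the lowest and highest of its wild-type signals were 112 and 146. Its relative Ifi47 had 1588, 66.3, 64.1 and 444. Irgm2 of the same family had 1168, 171, 226 and 1005. In Irgm2 replicate 4 came near replicate 1, whereas in Igtp and Ifi47 it was well below. Isg15, a ubiquitin-like modifier induced by interferons, had 482, 65.9, 108 and 236. The transcription factor gene Irf1 had 3071, 854, 954 and 1634, with the same order of the 4 kidneys as Isg15. Without replicate 1, 8 genes of the list stayed variable.

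Some of these genes share short motifs before their starts, which interferon-activated factors are known to bind. The sequences are from RefSeq on GRCm38.p6, where chr3:142620513-142620662 and chr3:142559894-142560043 (both plus strand) hold the 150 bases before the starts of Gbp2 and Gbp3, and chr11:58199406-58199555 and chr11:58214827-58214976 (both plus strand) those of Igtp and Irgm2. They are printed from 5′ to 3′ because these 4 genes were among the most variable of the list and are in pairs of neighbours. Capitals mark the γ-activated site TTCNNNGAA, which is its own reverse complement, and the interferon-stimulated response element searched as GAAANNGAAA or, on the other strand, TTTCNNTTTC.
Gbp2: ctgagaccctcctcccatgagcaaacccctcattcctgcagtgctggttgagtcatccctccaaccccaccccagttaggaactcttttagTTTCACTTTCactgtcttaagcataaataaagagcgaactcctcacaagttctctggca
Gbp3: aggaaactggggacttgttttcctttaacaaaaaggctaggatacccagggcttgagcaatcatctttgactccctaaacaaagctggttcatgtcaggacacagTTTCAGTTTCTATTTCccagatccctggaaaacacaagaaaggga
Igtp: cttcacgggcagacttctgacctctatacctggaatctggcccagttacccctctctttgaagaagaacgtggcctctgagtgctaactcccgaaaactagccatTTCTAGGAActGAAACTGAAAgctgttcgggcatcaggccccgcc
Irgm2: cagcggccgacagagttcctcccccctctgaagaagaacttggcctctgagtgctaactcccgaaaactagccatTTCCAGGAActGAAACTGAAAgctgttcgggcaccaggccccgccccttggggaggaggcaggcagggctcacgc
Gbp2 and Gbp3 had matches to the response element alone, which overlap each other in Gbp3, and Igtp and Irgm2 had 1 match to each motif in nearly the same arrangement. In the 300 bases from 250 before to 50 after the start, 8.47% of all 27025 promoters of the table held the γ-activated site and 3.49% the response element. A promoter was found for 7461 of the genes kept, and of these 6.88% and 2.96% held them. Of the 80 genes that were highest in replicate 1 with an SD of at least 1, 63 had a promoter, and 11 (17.5%) and 15 (23.8%) held the motifs. These genes were chosen by their signals and include members of the interferon-inducible list, such as Gbp2 and Igtp, and the difference in shares was not tested. The interferon-inducible list came from textbook knowledge, but it was chosen with earlier results of these data known. Its counts were 6 and 11 of 16 promoters (37.5% and 68.8%). They were 1 and 2 of 13 (7.69% and 15.4%) for antigen presentation and 0 and 2 of 15 (0% and 13.3%) for macrophage and leukocyte genes. For proximal tubule genes, which were low in replicate 1, they were 4 and 1 of 25 (16% and 4%). A match is a run of letters, and binding was not measured.

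Transcripts of myeloid cells were again highest in replicate 1 and next in replicate 4. Among macrophage and leukocyte genes 19 of 20 kept were variable and all 20 were highest in replicate 1, with median deviations of 1.15, −0.54, −0.77 and 0.07. C1qb, a complement gene expressed by tissue macrophages, had 2668, 576, 520.4 and 986. The lysozyme gene Lyz2 had 2868, 668, 707 and 1568. Aif1, a macrophage protein that binds calcium and actin, had 1000.1, 180.2, 115 and 284. Replicate 4 was second in all 3. Without replicate 1, 7 of the 20 stayed variable. Fewer cells of a type and less RNA per cell cannot be told apart in whole kidneys. S100a8, a calprotectin subunit abundant in neutrophils, had 3894, 137, 217 and 776. Its partner S100a9 had 1568, 77.4, 61.2 and 273. They were the variable members among the 3 neutrophil genes kept. Of 12 genes of T cells, B cells and immunoglobulin on the array, 1 was kept, Cd79b of the B cell receptor, with 115, 77.4, 73.9 and 105.

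Acute phase genes joined this pattern. Of 11 complement and acute phase genes kept, 7 were variable and all 11 were highest in replicate 1, with median deviations of 0.96, −0.28, −0.31 and −0.10. Their median SD was 0.64, and it was 1.41 over the wild-type kidneys. There 6 of the 11 were variable, or 0 without wild-type replicate 4. Hp, haptoglobin, had 1727, 193, 138 and 486. Cp, the copper oxidase ceruloplasmin, had 1258, 211, 225 and 301. In wild-type replicate 4, Hp had 2279 and Cp 1662, against at most 27.5 and 272 in the other wild-type kidneys. Slpi, a protease inhibitor of epithelia, had 1479.8, 36.8, 214 and 227. In Slpi replicate 2 alone was lowest, whereas in Hp and Cp replicates 2 and 3 were close. Ccl8, a chemokine that draws monocytes, had 539, 26.9, 7.88 and 217. The lymphoid chemokine gene Ccl21a, whose near-identical copies 1 probe may read together, had 1129, 121, 120.1 and 339.9. As a list, however, the 14 chemokines kept had medians of 0.25, −0.14, −0.48 and 0.25, which set replicate 3 low and placed replicates 1 and 4 nearly level. The order of replicates 1 and 4 in this list changed with the scaling of the arrays and with the offset.

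Transcripts of the adrenal gland, which lies on the upper pole of the kidney, were detected in replicate 1. Of 15 adrenal genes on the array, 8 that the detection rule left out were detected in replicate 1, and of these 7 were detected there and in no other Pkd1V/V kidney. Of all 7384 genes that the rule left out, 200 were detected in replicate 1 only. Cyp11b1, whose enzyme completes corticosterone, had 333, 0, 0 and 0. The 21-hydroxylase gene Cyp21a1 had 101, 0, 0 and 0. Chgb, a chromogranin of the medulla, had 133, 0, 0 and 0. These 3 genes were thus listed at 0 in every kidney but replicate 1. The summed signal of the 14 genes left out was 882 in replicate 1 and between 26.0 and 62.0 in the other 3. Star and Fdx1, also of the steroid pathway, were not detected in any Pkd1V/V kidney, and Pnmt was the only adrenal gene kept, with 52.2, 16.4, 19.6 and 28.9. The part of adrenal tissue in the other results of replicate 1 was not tested.

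Genes that respond to glucocorticoids or follow the circadian clock were also high in replicate 1. Of 21 kept, 6 were variable and 16 were highest in replicate 1, with median deviations of 0.46, −0.18, −0.14 and 0.03. Fkbp5, a cochaperone gene that the glucocorticoid receptor induces, had 438, 185, 158 and 160.1. The rhythmic deubiquitinase gene Usp2 had 1248, 573, 518 and 535. Replicate 1 stood apart in both, and replicates 2 to 4 were close together. Per1, a clock gene, had 1024, 541, 313 and 401. The clock repressor gene Nr1d1 had 104, 23.8, 38.7 and 35.2. Metallothionein and iron genes had the same order of kidneys by their medians of 0.33, −0.17, −0.07 and 0.01. Single genes differed from it, since 5 of the 11 kept were lowest in replicate 3 and 3 in replicate 2. Among them the zinc-binding Mt1 had 9700.2, 6354, 4799 and 8079.8, lowest in replicate 3. The hour at which each kidney was taken is not given in the sources used here.

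**Figure D4:**
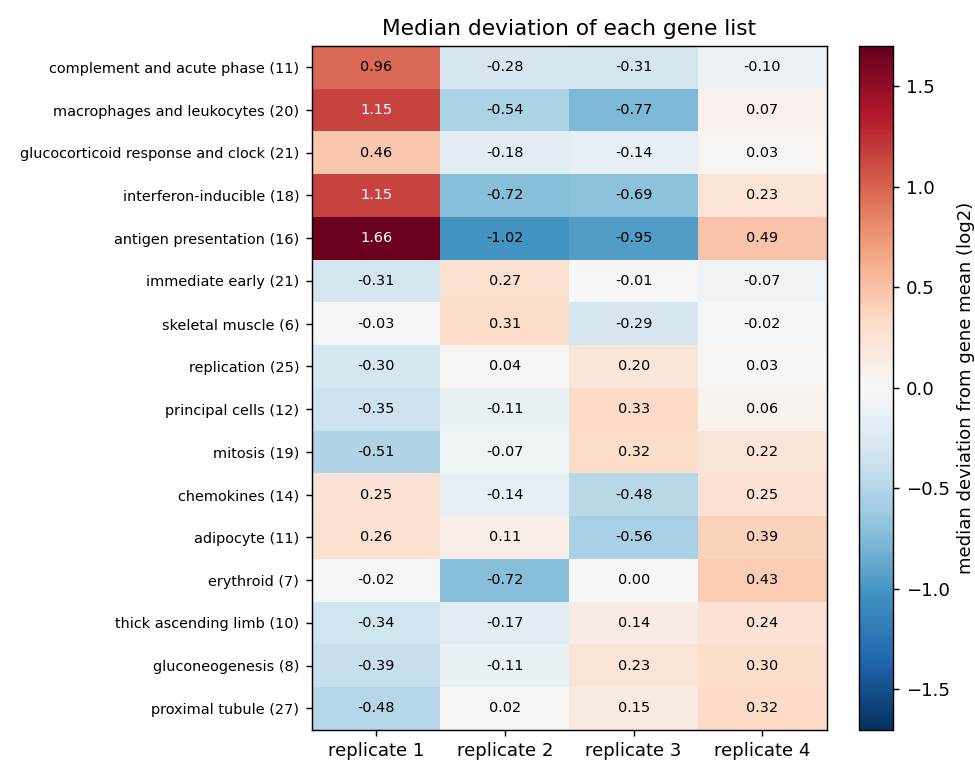
Median deviation from the gene mean, in log2 units, of each gene list (rows, with the number of genes kept in brackets) in the 4 Pkd1V/V kidneys (columns). The rows are the 16 lists of functions and cell types with at least 5 genes kept whose medians span at least 0.5, sorted by their order of kidneys. The sex-linked genes, used as a check, are not drawn. Antigen presentation spans the widest range, from −1.02 in replicate 2 to 1.66 in replicate 1.

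Genes of the proximal tubule were low in replicate 1 and highest, by their median, in replicate 4. Of 27 kept, 10 were variable and 22 were lowest in replicate 1 (32.8% of all genes), while 16 were highest in replicate 4 (19.5%). The median deviations were −0.48, 0.02, 0.15 and 0.32. Miox, whose enzyme opens the catabolism of inositol, had 321, 1359.9, 1493 and 2053. Slc5a2, the sodium-glucose cotransporter of the early proximal tubule, had 9.59, 61.0, 60.9 and 55.0. The glucose transporter gene Slc2a2 had 126, 306, 415 and 361. In Slc5a2, and in Spp2 (1526, 4754, 4754 and 4386), replicates 2 to 4 were close and replicate 1 alone was low. Without replicate 1 none of the 27 genes had an SD of at least 0.5, where 393 of all genes did.

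By their medians, metabolic functions shared the order of kidneys of the proximal tubule genes, from replicate 4 down to replicate 1. The 8 gluconeogenesis genes kept had medians of −0.39, −0.11, 0.23 and 0.30, with 4 genes lowest in replicate 1 and 4 in replicate 2. Pcx, pyruvate carboxylase, had 62.8, 157, 148 and 164. Fbp1, fructose bisphosphatase, had 826, 1513, 1466 and 1690.2. Replicate 1 was the lowest in both, and the other 3 kidneys were close. Pck1, whose enzyme makes phosphoenolpyruvate, had 70.2, 50.04, 146 and 98.7 and was lowest in replicate 2. The 33 genes of fatty acid oxidation and PPARα had medians of −0.18, −0.06, 0.08 and 0.21. Ehhadh, the peroxisomal bifunctional enzyme, had 63.6, 74.4, 146 and 159. The 68 respiratory chain genes had medians of −0.14, −0.07, 0.06 and 0.14. This was a small shift, in which 38 genes were lowest in replicate 1 (32.8% of all genes). The 1 variable gene, Cox7a1, did not follow this order, with 439, 514, 286 and 710, lowest in replicate 3. Genes of the thick ascending limb had medians of −0.34, −0.17, 0.14 and 0.24. Egf, the growth factor made in the distal nephron, had 124, 88.8, 255 and 304. Umod, uromodulin, had 2705, 2677, 3685 and 4878. In both, replicates 3 and 4 were the high pair. This class also held Ugt3a2, a UDP-glycosyltransferase gene, with 238, 198, 448 and 655, and Hao2, a peroxisomal oxidase gene.

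Genes of principal cells in the collecting duct and genes of the cell cycle had their lowest medians in replicate 1 as well, but their highest in replicate 3. Aqp2, the vasopressin-regulated water channel of principal cells, had 416, 837, 1435 and 647. Aqp3, on their basolateral side, had 515, 1051, 2325 and 1169. Both were highest in replicate 3 and lowest in replicate 1. The 12 principal cell genes kept had medians of −0.35, −0.11, 0.33 and 0.06, and 7 were highest in replicate 3 (24% of all genes). Another 4 were highest in replicate 1, where 6 were lowest. Of 19 mitosis genes kept, 16 were lowest in replicate 1 and 12 highest in replicate 3, with medians of −0.51, −0.07, 0.32 and 0.22. Cdk1, the kinase that drives mitosis, had 379.8, 504, 831 and 711. Top2a, which untangles replicated DNA, had 416, 476, 776 and 679. Replicates 3 and 4 were above replicates 1 and 2 in both. Of 25 replication genes kept, 19 were lowest in replicate 1, with medians of −0.30, 0.04, 0.20 and 0.03. Most of these differences were small, since 3 mitosis and 2 replication genes were variable. Pclaf, a PCNA-associated factor outside these lists, had 227, 59.0, 742 and 629 and was lowest in replicate 2. The medians of intercalated cells, the other cell type of the collecting duct, spanned 0.12.

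Replicate 2 was highest for genes that cells switch on soon after a stimulus. Of 21 immediate early genes kept, 14 were highest in replicate 2 (28.6% of all genes), 12 were lowest in replicate 1 and 6 were variable. The list's medians were −0.31, 0.27, −0.01 and −0.07. The transcription factor gene Egr1 had 1769, 7580.0, 5085 and 2978. Its relative Egr2 had 266, 1079, 447 and 440.2. Fos, of the AP-1 factor, had 164, 579, 726 and 346. Replicate 1 was lowest in all 3, replicate 2 was highest in Egr1 and Egr2, and replicate 3 was highest in Fos. Atf3, a stress-induced transcription factor gene, had 65.7, 224, 85.8 and 85.2. Ankrd1, a target gene of YAP, had 579, 2299.7, 838 and 957. In Atf3 and Ankrd1 replicate 2 alone was high.

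Replicate 2 also led other functions, with smaller ranges. Chac1, an ATF4 target that degrades glutathione, had 135, 943, 102 and 224. Slc7a3, a transporter of cationic amino acids, had 44.4, 158, 51.2 and 47.9. Asns, asparagine synthetase and also a target of ATF4, had 1259.8, 2212, 1037 and 1215 and an SD of 0.47. Replicate 2 was highest in all 3, and Asns was close in the other 3 kidneys. Of the 29 genes of ATF4 and ER stress, 16 were highest in replicate 2 (28.6% of all genes). Only 3 were variable (10.3%, near the 7.85% of all genes), and 1 of these, Atf4 itself, was highest in replicate 4. Over the wild-type kidneys 7 of the 29 were variable, or 2 without wild-type replicate 4. Of 16 cholesterol synthesis genes 14 were highest in replicate 2 and 0 were variable. Hmgcs1, which makes HMG-CoA, had 5872, 7653, 5613 and 5858. Of 11 contractile genes 9 were highest there and 0 were variable.

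A group without a listed function had its highest signals in replicate 2, then in replicate 1. Erich5 had 1442, 4421, 537 and 448. Rhbdl2, which encodes an intramembrane protease, had 1064, 2936, 630.5 and 424. Prf1, the perforin of cytotoxic lymphocytes, had 392, 1023, 182 and 130.1. Their ratios between kidneys were alike, and so were those of the zinc finger gene Zxda, although no shared role of these genes is known here. In the wild-type kidneys Erich5 had 801, 1775, 882 and 1190.5, with replicate 2 highest. Hoxb4, a homeobox gene, had 798, 1238, 355 and 269 and belongs to the class high in replicates 1 and 2.

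Replicate 3 was set apart by fat genes and by genes of the sex chromosomes. Ucp1, the uncoupling protein of brown fat, had 503, 594, 26.7 and 603. Cidea, a lipid droplet protein of brown fat, had 268, 419, 70.6 and 608. Car3, a carbonic anhydrase of fat and muscle, had 195, 186, 28.0 and 267. All 3 were lowest in replicate 3, as were Cidec and Adipoq, and in Ucp1 the other 3 kidneys were nearly level. Of the 11 adipocyte genes kept, 7 were variable and 9 were lowest in replicate 3 (20.8% of all genes). The other 2, Lep and Pck1, were highest in replicate 3. The summed signal of the 11 genes was 4203 in replicate 1, 3728 in replicate 2, 1981 in replicate 3 and 4493 in replicate 4. Plin1, Fabp4 and Retn were not detected on any of the 4 arrays. The Y-linked translation factor gene Eif2s3y had 1246, 1313, 0 and 1032 and the largest SD of all genes kept (3.12). Kdm5d, a Y-linked demethylase gene, had 129.7, 128, 0 and 168. Uty, another Y-linked demethylase gene, had 66.3, 60.05, 33.3 and 105 and was detected on all 4 arrays, lowest in replicate 3 but not at 0 there. Xist, the RNA of the inactive X chromosome, had 5.58, 0, 263 and 17.6 and was detected in replicate 3 only. Replicate 3 therefore differed from the other 3 in sex-linked transcripts, and the sex and the other properties of this kidney cannot be told apart.

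By their median, red cell transcripts were lowest in replicate 2. Hbb-bt, a β-globin gene, had 3091, 1247, 2381 and 4088. Alas2, the erythroid enzyme of heme synthesis, had 662, 264, 454 and 652. Together with Hba-a1 these genes put replicates 1 and 4 high, replicate 3 between and replicate 2 low. Of 7 erythroid genes kept, 6 were variable and 5 were lowest in replicate 2 (24.8% of all genes). The medians of the list were −0.02, −0.72, 0.004 and 0.43, so that replicate 1 was not high by the list. The variable genes Car2 (704, 871, 1499 and 1358) and Tal1 (4.51, 28.1, 21.0 and 30.4) were lowest in replicate 1. Slc4a1, the anion exchanger of red cells that intercalated cells also make, differed little with 211, 205, 214 and 225. The globin probes may read several copies of their genes.

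**Figure D5:**
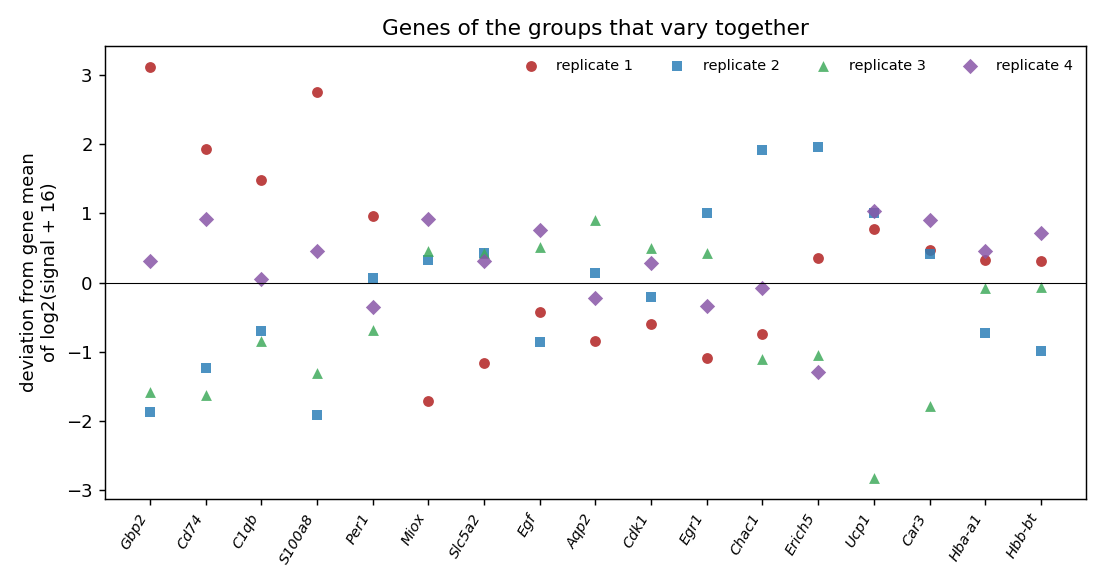
Deviation of single genes from their mean over the 4 Pkd1V/V kidneys, in log2 units, with a marker for each kidney. Genes are placed by the groups described, from the interferon and myeloid genes on the left, high in replicate 1, to the fat genes, low in replicate 3, and the globins on the right, low in replicate 2.

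The cytosolic ribosome, endothelial and heat shock genes held few or no variable members. The 54 cytosolic ribosome genes kept had a median SD of 0.08 and 1 variable member (1.85%, against 7.85% of all genes), Rps15a, whose probe was dim. None of 13 endothelial genes and none of 13 heat shock genes was variable. With 7.85% of all genes variable, lists of 13 are too short to be set apart by this. The medians of podocyte genes spanned 0.14. The 23 fibroblast and matrix genes were highest in replicate 1 in 16 cases, with medians of 0.21, −0.06, −0.21 and −0.05 and 1 variable gene, Mfap5. Col1a1, a chain of collagen I, had 6410.5, 5473, 4277 and 5135. Fibroblast and matrix genes were lowest in replicate 3 in 15 cases. Tubular injury genes had a higher median SD, 0.34 against 0.21 for all genes, and 3 of 21 were variable. Lcn2, lipocalin-2, had 11556, 7187, 7738 and 6697 and was high in all 4 kidneys. Pkd1 itself had 64.2, 136, 118 and 87.3, with an SD of 0.41.

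The detection rule left out genes that only 1 or 2 kidneys showed. Detection on exactly 1 array was found for 627 genes and on exactly 2 for 445. Of the genes on exactly 1 array, 12 reached a signal of 100 there, and 11 of these were in replicate 1, as were 200 of all 627. Some of the genes on 2 arrays belong to the interferon and MHC pathways. Nlrc5, the coactivator of class I genes, had 254, 4.19, 0 and 63.7. Ciita, the coactivator of class II genes, had 87.5, 4.60, 2.76 and 39.0. Cxcl9, a chemokine induced by interferon γ, had 205, 8.22, 0 and 24.8. All 3 were detected in replicates 1 and 4 and not in replicates 2 and 3, and they were picked after their values were seen. Of the 445 genes on exactly 2 arrays, 61 were detected in replicates 1 and 4 and 126 in replicates 2 and 3.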

How the data were processed

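RNA of 8 kidneys was measured on 8 arrays, and the 4 Pkd1V/V arrays are described. RNA was isolated by an RNeasy kit from the sedimented fraction of each homogenate. For each probe the authors deposited a signal intensity after background subtraction, not normalized between arrays, with a detection p-value from a step not given in the sources used here, bead numbers and bead standard errors. The authors' own normalized intensities, also deposited, were used as an alternative. Scan batches and array positions were not given there either, and the methods name a strain beside another Pkd1 line without saying whether it covers these mice.

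Intensities were quantile-normalized over all 8 arrays with limma 3.58.1 in R 4.3.3, floored at 0, and put on the log2 scale after adding 16 (Python 3.11.15). Of 25697 probes, 13126 passed the detection rule (p-value below 0.05 in 3 or 4 of the kidneys), and 12376 of these had a gene. The platform annotation named 1 gene for 23978 probes, several for 0 and none for 1719, and symbols were updated through gene identifiers for 23962 probes. Probes without a gene were left out. No test between groups was made, since 1 group is described, and single kidneys far from the others were found by Dixon's limit. The procedure was checked on simulated data.

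Gene lists (47 lists, 986 symbols on the array) came from textbook knowledge. The members and lists were chosen with earlier results of these data known. Functions are said to vary together where their lists gave the same order of the 4 kidneys by median deviation. Of 40 lists of functions and cell types with at least 5 genes kept, 16 had medians spanning at least 0.5, and 10 spanned less than 0.2. Named genes were the 25 highest signals, the 30 largest SDs, up to 3 members of each list and up to 5 of each larger gap class by SD, the sex-linked, erythroid and liver-secreted genes kept, Pkd1 and Asns. Named after their values were seen were Cd163, Irgm2, H2-D1, Cidec, Isg15, C1qb, Lyz2, Irf1, Ankrd1, Adipoq, Slc2a2, Atf3, Usp2, Cdk1, Top2a, Lcn2, Col1a1 and Hmgcs1, and also the genes detected on fewer than 3 arrays, and the genes with printed promoters. Alternatives were other normalizations, offsets, detection rules, a mean over a gene's probes, and leaving out each kidney.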

Additional observations from a re-analysis of the deposited data

Results flagged for a closer look

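In a group of 4 kidneys, 1 kidney was taken as far from the others where its gap to the nearest of them exceeded Dixon's 95% limit as a share of the whole range of log2 values. Chance flags about 1 in 20 groups, and 5.48% of all genes kept passed the limit, against 20 of 220 genes examined by name, many of which had been chosen for their spread.

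In replicate 3, Eif2s3y (a gap of 0.946 of the range), Ucp1 (0.934) and Kdm5d (0.899) lay far below the other kidneys. Rplp1 was also apart there, with a gap equal to 1 of the range because the other 3 kidneys shared the highest value of all arrays.

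Replicate 1 lay far above the others for Mmp9, a gelatinase gene (0.921), Fth1 (0.908), Usp2 (0.886), Fkbp5 (0.847) and Cd163 (0.832). It lay far below them for the proximal tubule genes Spp2 (0.929) and Slc5a2 (0.927), and for Pcx (0.891), the sterol desaturase gene Sc5d (0.874), the antioxidant regulator gene Nfe2l2 (0.868) and Spink1, a trypsin inhibitor gene (0.834).

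Replicate 2 lay far above the others for Slc4a9, a transporter gene of intercalated cells (0.908), Slc7a3 (0.898) and Hmgcs1 (0.855). Replicate 4 was far above for Rpsa (0.922) and far below for Serpina1b (0.879), both dim probes with signals of 41.6, 42.1, 40.4 and 66.6 and 59.1, 59.5, 57.2 and 42.3. The median number of beads was also apart on its array, with a gap equal to 1 of the range.

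Adrenal genes outside the detection rule had signals in replicate 1 above the highest of all 4 wild-type kidneys. These were 333 for Cyp11b1, 133 for Chgb, 101 for Cyp21a1, 78.2 for Cyp11a1, 76.1 for Chga, 55.2 for Cyp11b2, 38.9 for Mc2r, the corticotropin receptor gene, and 25.9 for Th, tyrosine hydroxylase. Of these, Cyp11a1 was also detected in replicate 3, with 20.8.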

How the results depend on the processing

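No paired analysis was possible because the results come from 1 group and from no test. The number of genes with an SD of at least 0.5 was between 586 and 732 under quantile normalization over the 4 arrays alone, median scaling, cyclic loess, the authors' normalized table, detection on all 4 arrays and the mean of a gene's probes. It was 320 with an offset of 64, 1257 without an offset and 1121 without the detection filter, as the offset and the filter act on dim probes. The number of these genes with 1 kidney apart was 578, and it was 267 with an offset of 64 and 999 without an offset. With replicate 1 as the kidney apart it was 423, and 208 with an offset of 64. Leaving out each kidney in turn gave between 393 (without replicate 1) and 928 genes with an SD of at least 0.5, and between 14 (without replicate 1) and 28 genes shared with the 30 of largest SD. Without an offset 17 of these 30 genes were shared. Of the 25 highest signals, 24 were shared in the authors' table and 19 with the mean of a gene's probes. The median deviation of each of 16 lists in its most deviant kidney moved by less than the spread between kidneys in all 128 comparisons with 8 alternatives, and 10 lists kept their whole order of kidneys in all 8. Of these medians 3 moved by over 1.5 times, all toward 0. With an offset of 64 erythroid genes in replicate 2 went from −0.72 to −0.36 and immediate early genes in replicate 1 from −0.31 to −0.20, and the last was also −0.20 with detection on all 4 arrays. SDs of named genes moved by over 1.5 times for 40 of 220 with an offset of 64, all smaller, and for 80 without replicate 1.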

Other observations

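The wild-type kidneys hold the same pairing of fat and sex-linked signals in 1 kidney. Wild-type replicate 2 had an Eif2s3y signal of 0 and a Xist signal of 305, and the other 3 wild-type kidneys had Xist signals between 4.53 and 11.9. Ucp1 had 462, 58.5, 259 and 174 in wild-type replicates 1 to 4. Cidea had 386, 67.5, 596 and 339.9, and Car3 had 181, 71.0, 374 and 157. Wild-type replicate 2 was lowest for all 3 genes, as Pkd1V/V replicate 3 was among the Pkd1V/V kidneys. These values come from 1 kidney in each genotype and were noticed in the data, and no test was made.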
